A study of Mus musculus with 2 samples.

Results

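Satb1 and 8 other genes for proteins that bind AT-rich or scaffold-attached DNA (Cux1, Safb, Safb2, Hnrnpu, Matr3, Arid3a, Hmga1 and Hmga2) were followed probe set by probe set on a pair of mouse arrays. Members were all probe sets to which the platform annotation gives exactly 1 gene symbol that is a current or former name of these genes. The rule found 35 probe sets of 8 genes, out of 34945 probe sets with 1 symbol and 18193 genes in all. Hmga1 was not analysed here, since no probe set was found for it under this rule. The RNA came from Lin- c-kitHi Sca-1+ Flt3- marrow cells of wild-type C57BL6J mice, called LSK Flt3- cells, a fraction that holds the blood stem cells. Cells of the control group carried a GFP transduction and cells of the other group a Satb1 transduction. Each group had 1 array, and the age of the mice, the vector, the time after transduction and the number of animals per array are not stated in the labels. With n = 1 per group no difference below has a replicate check, an error over samples or a p-value, and all differences describe these 2 arrays only.

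SATB1 is a nuclear protein, abundant in thymocytes, that binds stretches of AT-rich DNA prone to unwinding and tethers them, so that distant parts of a chromosome are held together with chromatin-modifying enzymes. CUX1 and ARID3A recognise similar sequences, often as parts of matrix attachment regions, and SAFB, SAFB2, HNRNPU (also called SAF-A) and MATR3 belong to the nuclear scaffold and bind RNA as well as DNA. HMGA1 and HMGA2 are small proteins that enter the minor groove of AT-rich DNA through short motifs called AT hooks. HMGA2 is best known in this tissue as a gene of fetal blood stem cells.

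The DNA in front of the members' own genes gives context for the values, since proteins of this family bind AT-rich stretches. RefSeq windows of 300 bases around gene starts (250 before and 50 after, mouse build GRCm38.p6) were matched for 7 of the 9 genes, with 12 windows. Stretches before the start are shown for Satb1, the transduced gene, for Hmga2, the member with the largest increase, and for the segment that Safb and Safb2 share. Capitals mark runs of 4 or more A or T.
Satb1, chr17:51833291-51833540, minus strand: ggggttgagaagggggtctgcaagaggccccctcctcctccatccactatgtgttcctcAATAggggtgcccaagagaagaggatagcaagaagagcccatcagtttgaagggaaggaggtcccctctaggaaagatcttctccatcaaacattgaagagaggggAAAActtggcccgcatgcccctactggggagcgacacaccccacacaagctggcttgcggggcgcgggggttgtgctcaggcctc
Hmga2, chr10:120476470-120476719, minus strand: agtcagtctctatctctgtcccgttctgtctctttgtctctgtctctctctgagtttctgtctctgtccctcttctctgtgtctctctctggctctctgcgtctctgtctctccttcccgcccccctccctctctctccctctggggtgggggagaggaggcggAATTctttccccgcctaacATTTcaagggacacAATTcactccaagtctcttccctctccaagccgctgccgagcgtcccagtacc
Safb and Safb2, chr17:56584732-56584835, plus strand: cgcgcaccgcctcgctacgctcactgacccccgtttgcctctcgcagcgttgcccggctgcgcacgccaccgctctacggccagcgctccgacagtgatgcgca

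Each of these stretches has a lower A+T content than the median of all windows of the table. Those of Satb1 and Hmga2 lie above the median of the genes measured past the floor here. The Satb1 stretch is 42.0% A+T with 2 such runs, the Hmga2 stretch 43.6% with 3, and the 104 bases shared by Safb and Safb2 are 28.8% with 0. Safb and Safb2 face away from each other, with listed starts 397 bases apart, so the shared segment lies in front of both. Over whole windows, the 5 starts listed for Satb1 ranged from 23.3% to 51.0% A+T, and the window was 35.0% A+T for Cux1 and 27.3% for Hnrnpu. All windows of the table had a median of 47.3%, and the 9005 genes above the floor with a window had a median of 39.25%. The letters ATATAT, which read the same on both strands, occur in 5.42% of all windows and in 0 of the 12 members' windows. This says only that these letters are not in these windows.

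The values are MAS5 intensities, 1 per probe set and array, on a linear scale. Intensities under 61.7, the median of all values, were set to that floor, and the log2 difference is the Satb1-labelled array minus the GFP-labelled array. A difference that uses the floor is a lower bound. Of the 35 probe sets, 28 lay above the floor on both arrays, 2 on the GFP-labelled array only, and 5 on neither. The 5 were 1439315_at (Satb1), 1425612_at (Cux1), 1454415_at and 1432911_at (Safb) and 1446196_at (Hmga2). Intensities of different probe sets cannot be set against each other, because their oligos hybridise differently, so the arrays are compared within a probe set, and a sum over a marker list is given only to set that list's arrays side by side.

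**Figure D1:**
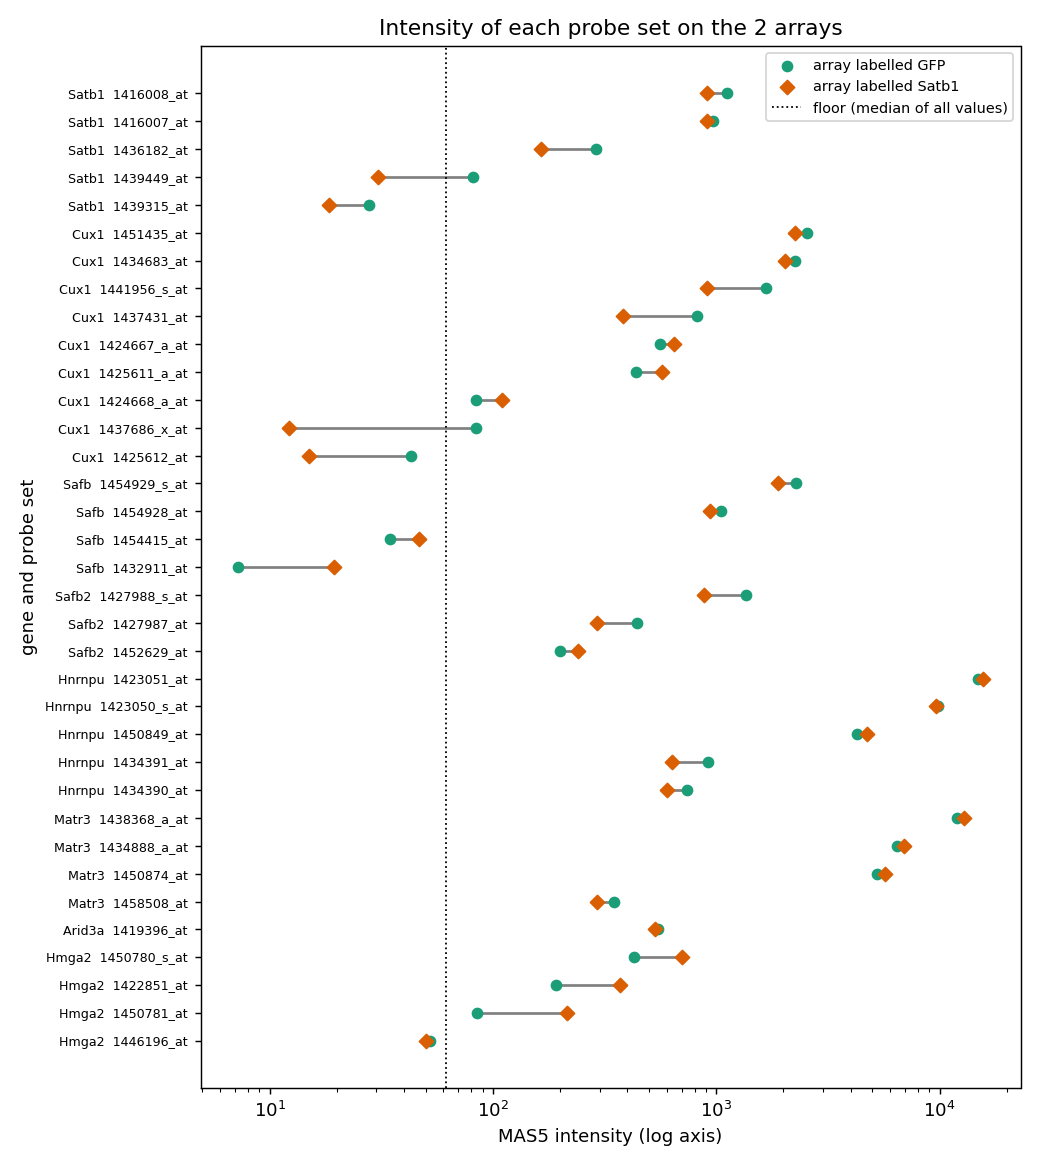
MAS5 intensity (log axis) of all 35 probe sets on the GFP-labelled array (circles) and the Satb1-labelled array (diamonds), joined by a line and ordered by gene; the dotted line is the floor of 61.7. The 4 Satb1 probe sets that reach past the floor read lower on the Satb1-labelled array, while 3 of the 4 Hmga2 probe sets read clearly higher there.

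Satb1 itself, the transduced gene, was lower on the Satb1-labelled array with all 4 of its probe sets above the floor on at least 1 array. The intensities were 1116 (GFP) and 909 (Satb1) for 1416008_at, a log2 difference of -0.30. For 1416007_at they were 964 and 908, a difference of -0.09, and for 1436182_at 288 and 165, a difference of -0.81. Probe set 1439449_at gave 81.4 and 30.5, at least 1.32-fold lower. It passed the floor only on the GFP-labelled array, so its direction follows from that filter. Probe set 1439315_at gave 27.8 and 18.5, below the floor on both. Over the 3 with both intensities over the floor the mean log2 difference was -0.40 with an SD of 0.37 between probe sets. This SD is technical and is not an error of the difference between groups. Per the platform annotation, 1416008_at and 1416007_at were designed from the same source sequence, so they are not independent measures of the gene.

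All 3 differences lay inside the range that holds the central 95% of probe sets of like intensity. That range ran from -0.51 to 0.45 for mean intensities of 500 to 2000, and from -0.91 to 0.58 for 200 to 500. Satb1 stayed lower on the Satb1-labelled array with these probe sets after quantile normalization (-0.27, -0.06 and -0.68) and after centring each array on its median (-0.24, -0.03 and -0.76). Centring adds a common constant to these 3 differences, and 1416007_at (-0.03) was then nearly equal on the arrays. The transcript was thus not higher under the Satb1 label, although a probe set that targets none of the transduced stretch cannot test it. Where these probe sets lie in the transcript is not known here, so every direction rests on the labels alone. Whether the labels were exchanged was not tested, and every direction printed here would turn if they were.

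Hmga2 showed the only increase of 2-fold or more among the members. Probe set 1450781_at read 85.1 on the GFP-labelled array and 215 on the Satb1-labelled one, a 2.53-fold difference (log2 1.34); 0.327% of all probe sets with 1 symbol above the floor were as much as 2-fold higher. With 1422851_at the values were 192 and 371, which is 1.93-fold (0.95), and with 1450780_s_at they were 430 and 701, which is 1.63-fold (0.71). The remaining probe set, 1446196_at, was below the floor with 52.4 and 49.9. The median of the 3 log2 differences was 0.95, and the SD between these probe sets was 0.32.

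Each of the 3 Hmga2 values lay above the central 95% range of its intensity class, whose upper ends were 0.69 (under 200), 0.58 and 0.45. These 3 probe sets were designed from the same source sequence, per the platform annotation, so they are not independent measures of the gene, and 1446196_at comes from another sequence. Among 2028 genes with at least 3 probe sets that exceeded the floor on each array, Hmga2 was 1 of 2 (0.0986%) with every such probe set at least 1.5-fold higher. The other was Tgfbi, a secreted matrix protein gene. This count was made after the Hmga2 values were seen. With the floor at the 75th percentile of all values 1450781_at and 1422851_at have no difference, since both of their intensities then lie under it, and 1450780_s_at keeps 0.66.

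**Figure D2:**
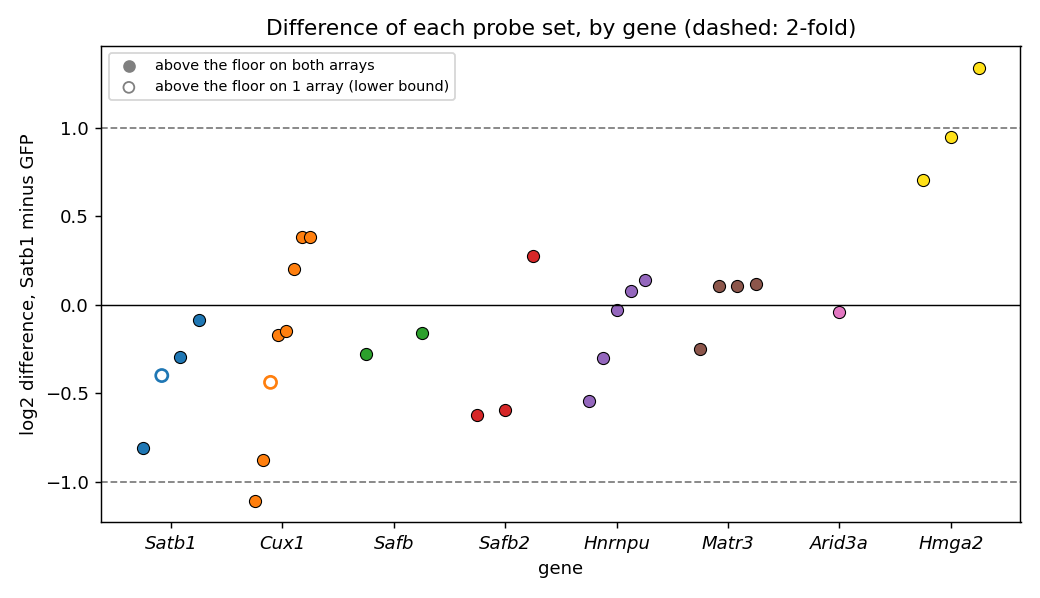
Log2 difference (Satb1-labelled minus GFP-labelled array) of the 30 probe sets above the floor on at least 1 array, by gene; open circles are lower bounds and dashed lines mark 2-fold. Hmga2 lies wholly above 0, from 0.71 to 1.34, and Cux1 spreads from -1.11 to 0.38. Satb1 lies below 0, where its open circle passed the floor only on the GFP-labelled array.

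Cux1, a homeodomain protein with CUT repeats, was the member whose probe sets disagreed most. Probe set 1437431_at read 819 on the GFP-labelled array and 381 on the Satb1-labelled one, 2.15-fold lower and the only member past 2-fold in that direction, as were 0.853% of all probe sets with 1 symbol above the floor. With 1441956_s_at the values were 1670 and 910, which is 1.84-fold lower. The x_at probe set 1437686_x_at, whose oligos may also match other genes, gave 83.6 and 12.2 and so was at least 1.35-fold lower. It passed the floor only on the GFP-labelled array, so its direction follows from that filter.

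Other Cux1 probe sets did not share this difference. The values were 2539 and 2252 for 1451435_at and 2264 and 2042 for 1434683_at, with log2 differences of -0.17 and -0.15. All 3 probe sets of the a_at kind, which match several transcripts of the same gene, were higher on the Satb1-labelled array. They read 561 and 645 (1424667_a_at), 439 and 572 (1425611_a_at) and 84.3 and 110 (1424668_a_at), differences of 0.20, 0.38 and 0.38. Probe set 1425612_at gave 42.9 and 15.0, below the floor. Per the platform annotation, 1424667_a_at and 1424668_a_at share a source sequence with 1451435_at, which was lower. Probe set 1425611_a_at shares another with 1425612_at. The a_at probe sets are thus not 3 independent measures.

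The lower values of 1437431_at and 1441956_s_at were outside the central 95% range, and those of the other Cux1 probe sets with both intensities over the floor were inside it. These directions held after quantile normalization and after median centring. The SD between the 7 Cux1 probe sets with both intensities over the floor was 0.59. Of the 332 genes with at least 5 such probe sets, 9 had a larger SD (2.71%), and the median SD was 0.23; this comparison was chosen after the values were seen. The Cux1 locus also encodes CASP, a Golgi protein made from an alternative transcript. Which of its products each probe set detects is not known here, so no value can be assigned to the CUX1 protein.

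Safb2, an RNA- and scaffold-binding protein gene, was lower with most of its probe sets. The values were 1356 and 880 for 1427988_s_at, a log2 difference of -0.62 that lay below its central 95% range. For 1427987_at they were 440 and 292 (-0.59), inside the range of that class. Probe set 1452629_at went the other way with 200 and 241 (0.27), although all 3 were designed from the same source sequence.

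Safb, its neighbour and paralogue, differed less. Probe set 1454929_s_at read 2284 and 1885 (-0.28) and 1454928_at read 1045 and 935 (-0.16), both inside the range. The values of 1454415_at (34.7 and 46.5) and 1432911_at (7.2 and 19.4) were under the floor. An s_at probe set matches several transcripts, so how far those of Safb and Safb2 measure each gene apart is not known.

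Hnrnpu and Matr3, both abundant scaffold and RNA-binding proteins, were close to equal on the arrays with most probe sets. For Hnrnpu the values were 14894 and 15688 (1423051_at), 9850 and 9652 (1423050_s_at) and 4288 and 4723 (1450849_at), log2 differences of 0.07, -0.03 and 0.14. The small negative value turned to 0.02 after median centring. For 1423051_at, 1423050_s_at and 1450849_at the platform annotation gives no source sequence. The remaining pair, designed from a shared source sequence, was lower. It read 921 and 632 with 1434391_at (-0.54, just below the central 95% range) and 743 and 603 with 1434390_at (-0.30).

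For Matr3 the probe sets 1438368_a_at (11994 and 12926), 1434888_a_at (6473 and 6960) and 1450874_at (5261 and 5695) differed by 0.11, 0.10 and 0.11. The last, 1458508_at, gave 348 and 293 (-0.25). Arid3a, the B cell factor also called Bright, has a single probe set, which gave 547 and 532. That log2 difference of -0.04 became 0.01 after median centring, so it has no settled direction.

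At 2-fold, 1 of the 30 member probe sets above the floor was higher (Hmga2) and 1 lower (Cux1), while 0.327% and 0.853% of all 20173 probe sets with 1 symbol above the floor were. At 1.5-fold, 3 were higher and 5 lower, beside 2.47% and 4.72%. The 3 are all of Hmga2, and the 5 are a pair each of Cux1 and Safb2 and 1436182_at of Satb1. By the brightest probe set of each gene, 0 of the 8 genes was 2-fold apart, beside 1.13% of all 11048 genes. Since several members share a gene and a source sequence, these counts are not counts of independent measures.

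Of the 28 member probe sets with both intensities over the floor, 7 lay outside the central 95% range of their intensity class, beside 4.45% of all probe sets with 1 symbol. They were 3 of Hmga2, a pair of Cux1, and 1 each of Safb2 and Hnrnpu. These too are not independent measures, since several are of the same gene and the 3 of Hmga2 share a source sequence. The median log2 difference of the 28 was -0.06, and that of all 18506 probe sets with 1 symbol above the floor on each array -0.01.

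**Figure D3:**
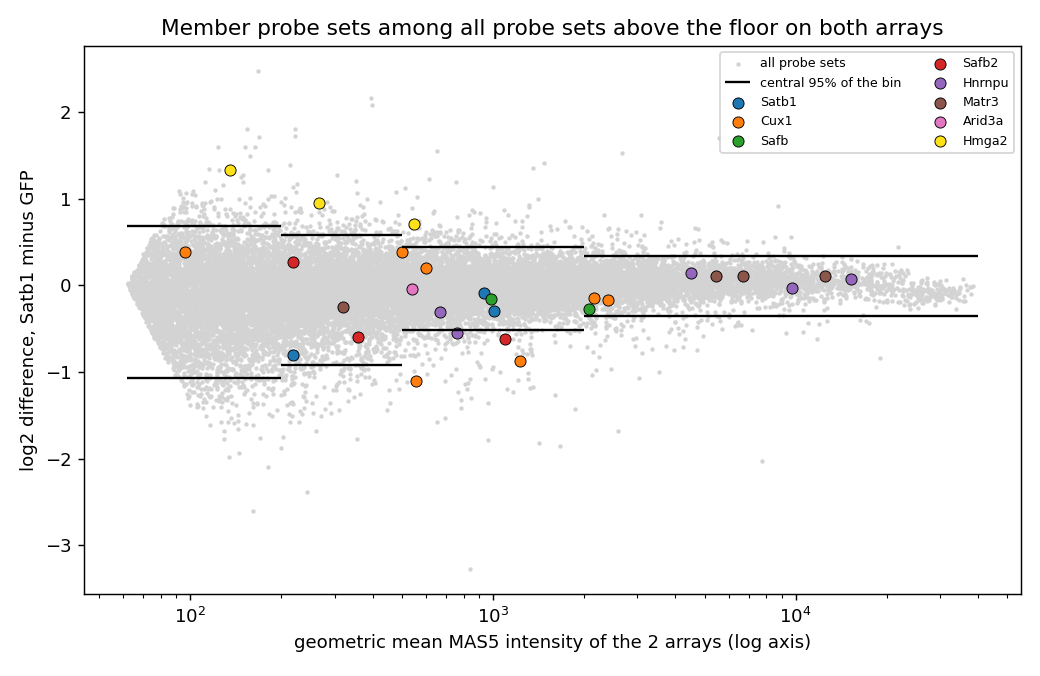
Log2 difference against geometric mean intensity (log axis) for all probe sets with both intensities over the floor (grey) with the 28 member probe sets in colour; black lines bound the central 95% of each intensity class. The 3 Hmga2 points lie above the upper line, and Cux1, Safb2 and Hnrnpu have points below the lower one, while Matr3, Arid3a, Safb and Satb1 lie between the lines.

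Genes related to the members by family or function were then set beside them, each by its brightest probe set. In the list of family relatives, 15 of 21 genes were measured, 0 were 2-fold apart, 7 were higher by some amount and 8 lower, with a median log2 difference of -0.03. All 11048 genes above the floor had a median of -0.02. The largest differences were those of Arid5b, an AT-rich interaction domain gene (346 and 188, -0.88), and Arid3b, the close relative of Arid3a (66.4 and 91.4, 0.46). The chromatin proteins Hmgn1 (19448 and 18311) and Hmgb2 (12937 and 15584) were within 2-fold.

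Among nuclear matrix, lamina and chromosome loop genes, all 17 were measured and 0 were 2-fold apart, with 10 higher, 7 lower and a median of 0.04. Sfpq, a paraspeckle protein gene, read 7677 and 9442 (0.30) and the cohesin gene Rad21 8860 and 10499 (0.24). The nucleolin gene Ncl (18372 and 18843) and the lamin B receptor gene Lbr (14120 and 15780) were within 2-fold too. Lmna, named after its values were seen, read 98.8 and 54.9 and so was at least 1.60-fold lower.

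Genes for proteins reported to act with SATB1 were close to equal on the arrays. Of 14 genes, all above the floor, 7 were higher and 7 lower, 0 by 2-fold, and the median was -0.01. Chd4, the NuRD remodeller ATPase, read 2243 and 1792 (-0.32), the beta-catenin gene Ctnnb1 9734 and 12080 (0.31), and the corepressor gene Ctbp1 6859 and 6986.

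Genes reported as SATB1 targets in lymphocytes were mostly under the floor in these cells. Of 22 genes, 8 were above it, 2 higher and 6 lower, 0 by 2-fold, with a median of -0.19. For comparison, all 11048 genes past the floor split into 4994 with a positive and 6051 with a negative difference, and 1.13% of them differed by 2-fold or more. Notch1 read 653 and 456 (-0.52), Myc 7526 and 6079 (-0.31), and the survival gene Bcl2 3964 and 4081 (0.04). Cd8a had the largest difference (88.9 and 148, 0.73), with an x_at probe set. Genes such as Rag1 (21.7 and 30.7), Il2ra (23.8 and 23.8) and Foxp3 (58.5 and 45.6), named after their values were seen, lay below the floor.

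**Figure D4:**
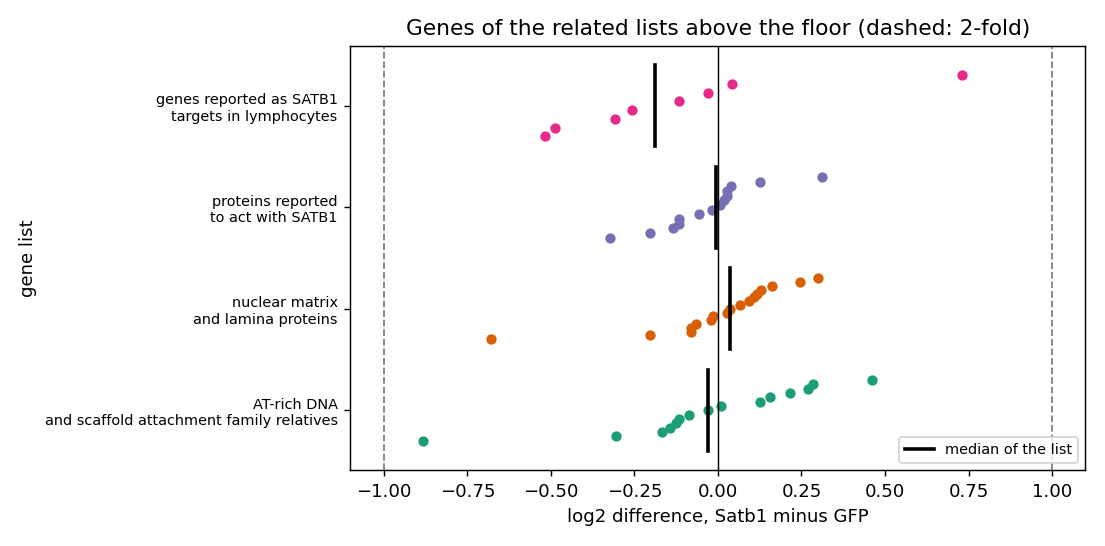
Log2 difference (Satb1-labelled minus GFP-labelled array) of each gene above the floor in the 4 related lists, 1 point per gene, with the list median as a black bar and 2-fold as dashed lines. No point lies beyond 2-fold, and the medians run from -0.19 for the reported targets to 0.04 for the nuclear matrix list.

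Markers of other blood cells differed between the same arrays, and their part in the members' differences was not tested. In arrays of whole cell populations, fewer cells of a type and less RNA per cell cannot be told apart. Over all 11048 genes above the floor, 30 were at least 2-fold higher and 95 lower. Of 5 mast cell and basophil markers, 3 were at least 2-fold lower (Fcer1a, Ms4a2 and Mcpt8). Cpa3 (7418 and 5347) was lower by under 2-fold, and Gata2 (2698 and 2629) was nearly equal. The summed intensity of the list was 16393 on the GFP-labelled and 10049 on the Satb1-labelled array. Mcpt8 (4653 and 1449) and Cpa3 make up most of that difference. Of 6 measured neutrophil and monocyte markers, 3 were at least 2-fold higher (S100a8, S100a9 and Ltf). The other 3 were lower by under 2-fold: Itgam (127 and 121), Csf1r (4099 and 3549) and Cd14 (320 and 246). The list's sums were 9310 and 18868, in which S100a8 (3094 and 10109) and S100a9 (1578 and 4539) make up most of the difference. Of 3 measured NK cell markers, Nkg7 (2667 and 754) and Gzmb (3162 and 875) were at least 2-fold lower, and Ncr1 (3.2 and 6.7) was below the floor. The list's sums, 5831 and 1635, therefore rest on Nkg7 and Gzmb. The 5 megakaryocyte markers were all higher, each by under 2-fold (sums 25661 and 29402). The largest differences were those of Ppbp (1.75-fold) and Gp1bb (1.67-fold). All 4 measured T cell markers lay below the floor on both arrays, as did 3 of 4 B cell markers, Cd79b excepted, and 2 of 3 erythroid markers, Klf1 excepted. Of the 6 measured genes of the sorting gate and stem cells, all were above the floor (sums 14415 and 14091). Slamf1, the gene of the stem cell marker CD150, was 2.43-fold higher (95.7 and 233), and the other 5 were within 2-fold. Flt3 RNA was among them (1390 and 1334), although the gate takes cells without Flt3 on the surface.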

How the data were processed

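RNA of 1 cell population labelled GFP and 1 labelled Satb1 was measured on Affymetrix arrays. The deposited values are intensities that the authors made with MAS5, as the submitters' processing notes say; its version and scaling target are not stated there, and detection calls were not used. The mean without the lowest and highest 2% was 497 on both arrays. Arrays have no read depth; their number limits precision.

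Of 45037 probe sets, 34945 had 1 symbol in the platform annotation, 932 several and 9160 none. Of those with 1 symbol, 34741 were matched through the Entrez ID to the RefSeq table of GRCm38.p6 and took its current symbol. Values were used as deposited, floored at the median and differenced on the log2 scale; for a gene, the probe set brightest on average (log2) was taken. No test was possible with 1 array per group. The spread at like intensity was taken in classes bounded by 200, 500 and 2000. Scripts (Python 3.11.15, pandas 2.3.3) were tested on simulated data. The members and lists were chosen with earlier results of these data known. Named genes were every member probe set, and per list the genes at least 2-fold apart or else the 2 largest differences above the floor on both arrays, plus the 2 brightest. RNA quality control probe sets and protein sequences were not analysed here. Alternatives were other floors, scalings, fold thresholds and probe set rules.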

Additional observations from a re-analysis of the deposited data

How the results depend on the processing

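No paired analysis was possible because each group has 1 array, and no array could be left out. The number of arrays limits every statement, and for dim probe sets and for the counts the choice of floor does too. The cause of each shift below was not tested, except that a lower floor admits dim probe sets, a higher one removes them and another threshold counts other folds. Under quantile normalization, all 35 member differences moved by less than the SD between probe sets of a gene at like intensity. Median centring shifts differences by at most a common constant smaller than that SD, so it could not move them further. The 5 probe sets below the floor on both arrays stayed without a difference under these settings. Moves larger than that SD numbered 6 under a floor at the 25th percentile, 8 under one at the 75th and 6 without a floor. Members at least 2-fold higher, 1 as reported, numbered 2 after quantile normalization, after median centring and with no floor, 0 under a floor at the 75th percentile, 3 at 1.5-fold and 0 at 3-fold. Members at least 2-fold lower, also 1, numbered 4 at the 25th percentile floor, 4 with no floor, 0 under a floor at the 75th percentile, 5 at 1.5-fold and 0 at 3-fold. Over all genes, the 30 higher and 95 lower became 440 and 787 under a floor at the 25th percentile, 5 and 18 at the 75th, 1478 and 1979 with no floor, 54 and 60 after quantile normalization, 18 and 57 with the mean over probe sets, 193 and 432 at 1.5-fold and 9 and 10 at 3-fold. Of the reported SATB1 targets, 0 were 2-fold apart as reported, 1 was lower at the 25th percentile floor, and 2 were higher and 4 lower with no floor. Hnrnpu, at 0.07 by its brightest probe set, was at -0.13 by the mean over its probe sets. Among genes with a mean intensity of at least 500, the 40 lower genes of the AT-richest promoters became 15, and the 5 of the AT-poorest became 0.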

Other observations

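Promoter base composition was set against the differences of all genes, since the transduced protein binds AT-rich DNA. Of the 9005 genes above the floor with a RefSeq window, the 25% with the lowest A+T content (12.0% to 33.3%) held 6 genes at least 2-fold higher and 5 lower on the Satb1-labelled array, out of 2256. The 25% with the highest (45.1% to 71.0%) held 7 higher and 40 lower, out of 2199, which is 1.82% lower against 0.222%. The sets between held 11 lower of 2247 and 19 lower of 2303. The median log2 difference was -0.01 in the lowest and -0.03 in the highest set, and over all these genes the Pearson correlation of A+T content with the difference was -0.07, given as a description across genes, which are not replicates. Median intensity also differed, at 856 in the lowest and 621 in the highest set, and its part in the pattern was not tested over all genes. Among genes with a mean intensity of at least 500, chosen after seeing the data, 15 of 1207 were lower in the highest set and 0 of 1408 in the lowest. After quantile normalization, also chosen afterwards, 32 were lower in the highest set and 4 in the lowest, with 12 and 13 higher. Of the 218 genes with the letters ATATAT in a window, 6 were at least 2-fold lower and 0 higher, beside 69 lower and 26 higher of the 8787 without. That is 2.75% lower with the letters and 0.785% without. Genes with the letters also had a higher median A+T content, 48% against 39%. The part of A+T content in this contrast was not tested. The windows cover gene starts only, and binding of the protein was not measured here.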
